A study of Mus musculus with 30 samples.

Results

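The replication-dependent histone genes of the mouse were taken as every row of the deposited gene table whose symbol begins with Hist1h, Hist2h, Hist3h or Hist4h, which gave 62 of 20563 rows. They comprised 6 H1, 18 H2A, 19 H2B, 11 H3 and 8 H4 genes. The Hist1 rows on chromosome 13 numbered 51, and the Hist2 cluster on chromosome 3 held 7. The Hist3 rows on chromosome 11 numbered 3, and Hist4h4 lay alone on chromosome 6. Annotated as protein-coding were 60 of the 62 rows, the others being the processed pseudogenes Hist1h2al and Hist3h2bb-ps. Hist1h2al (chromosome 13, 51202727 to 51203065) lay apart from the other Hist1 rows. RNA had been sequenced from embryonic stem cells (day 0) and from embryoid bodies, the aggregates that form when these cells are grown without the cytokine LIF on non-adherent plates, at day 4 and day 8. The 5 lines were labelled Pali_WT (genotype Wild type), Pali1-/-, the double knockout Pali1-/-, Pali2-/-, C129 wild type and Aebp2gt/gt, a gene trap. Each line had 2 libraries at each time point, 30 in all. The labels call these biological duplicates and do not say whether different clones were used, so the p-values below measure the spread between these cultures. No treatment other than the removal of LIF is labelled. For 2 double knockout libraries, replicate 1 at day 0 and replicate 1 at day 4, the description names the other culture state than the title, and the title was followed.

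Replication-dependent histone genes make the core histones H2A, H2B, H3 and H4, which wrap newly replicated DNA, and the linker histones H1, which bind where DNA enters and leaves the nucleosome. They lack introns as a rule and are transcribed in S phase under the coactivator NPAT. Their mRNAs end in a stem-loop in place of a poly(A) tail, and the stem-loop binding protein SLBP governs their processing, translation and decay. The libraries were made from ribosomal RNA-depleted total RNA, a method that does not depend on a poly(A) tail. The proteins PALI1, PALI2 and AEBP2 are accessory subunits of PRC2, the Polycomb enzyme that adds methyl groups to H3 at repressed genes.

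The stem-loop is shown for 5 members that the results turn on, since it is the feature that sets these mRNAs apart. The sequences are from GENCODE M21 transcript models (GRCm38), read 5′ to 3′ in DNA letters, with the stem-loop of 16 bases in capitals.
Hist3h2ba: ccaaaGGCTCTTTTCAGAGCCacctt
Hist3h2a: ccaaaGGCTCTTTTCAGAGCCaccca
Hist1h1e: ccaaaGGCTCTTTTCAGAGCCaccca
Hist4h4: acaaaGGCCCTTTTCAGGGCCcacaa
Hist1h1t: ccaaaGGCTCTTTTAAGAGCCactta
The pattern searched was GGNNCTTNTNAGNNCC with all 6 stem positions paired (G with C, A with T or G with T). It was found in transcript models of 39 of the 62 histone rows and of 62 of 21877 genes with a protein-coding transcript (0.283%). The form carried by Hist3h2ba, Hist3h2a and Hist1h1e was the most frequent, in 24 of the 39 models. Hist1h1t shared its form with 5 further members, 6 in all, and Hist4h4 shared its form with 2, 3 in all. For 23 members the model held no such pattern, which says only that these letters are not in the model. In 8 members, among them Hist1h1e, Hist3h2a and Hist4h4, the model ran on for at least 1000 bases past the stem-loop.

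The proximal promoters of both protein-coding Hist3 genes and of Hist1h2aa are shown as the 250 bases before the RefSeq start site (GRCm38.p6). The Hist3 genes rose during differentiation, and Hist1h2aa fell in the mean over lines. Capitals mark the octamer ATTTGCAT, TATAAA and CCAAT, searched on both strands.
Hist3h2ba, chr11:58948661-58948910, plus strand: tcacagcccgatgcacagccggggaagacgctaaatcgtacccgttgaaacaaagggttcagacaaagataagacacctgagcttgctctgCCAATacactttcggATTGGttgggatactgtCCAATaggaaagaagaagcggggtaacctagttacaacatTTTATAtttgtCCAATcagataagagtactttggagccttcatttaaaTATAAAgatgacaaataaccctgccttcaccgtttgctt
Hist3h2a, chr11:58954435-58954684, plus strand: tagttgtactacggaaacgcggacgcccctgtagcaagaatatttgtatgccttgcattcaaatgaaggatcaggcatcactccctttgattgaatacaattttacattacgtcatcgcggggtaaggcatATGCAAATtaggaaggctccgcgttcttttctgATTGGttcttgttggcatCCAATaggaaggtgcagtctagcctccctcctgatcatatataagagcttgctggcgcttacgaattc
Hist1h2aa, chr13:23934187-23934436, plus strand: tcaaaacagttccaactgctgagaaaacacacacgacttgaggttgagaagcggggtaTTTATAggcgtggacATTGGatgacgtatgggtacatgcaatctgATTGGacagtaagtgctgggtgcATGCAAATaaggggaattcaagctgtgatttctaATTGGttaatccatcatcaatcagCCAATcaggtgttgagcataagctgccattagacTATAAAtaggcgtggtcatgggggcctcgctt
Hist1h2aa and Hist1h2ba are arranged head to head with 281 bases between their start sites, so the stretch shown also holds most of the promoter of Hist1h2ba. Promoters of 300 bases, 50 of them past the start, could be matched for 55 of the 62 members. In these the octamer was found in 14 of 55 (25.5%), against 1.97% of 27025 genes with a promoter in the same table. All 14 were H2A genes (7 of 16) or H2B genes (7 of 16). TATAAA was found in 31 of 55 histone promoters (56.4%) against 15.7% of all, and CCAAT in 48 of 55 (87.3%) against 41.1%. Among H4 genes CCAAT was found in 1 of 8. These matches describe the sequence and were not tested for binding.

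Column totals of the deposited normalised counts ran from 15470082 to 18336791, and estimated depth from 13198297 to 28151943 reads per library. The 62 histone rows together took 1.00 to 1.78% of a library's total. The cells matched their label at day 0: the summed level of 10 pluripotency markers had a median of 110570 normalised counts at day 0, 46649 at day 4 and 36446 at day 8. The sum of 4 primed epiblast markers had medians of 6421, 52340 and 17746 at the same days. Markers of later lineages were higher at day 8: the sum of 10 extraembryonic endoderm markers rose from a range of 55.2 to 131 at day 0 to a range of 144 to 3592. The sum of 9 fibroblast markers went from a range of 72.3 to 620 to a range of 898 to 4678. The part of these shifts in cell type in any histone result was not tested. In bulk RNA, fewer cells of a type and less RNA per cell cannot be told apart.

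Mean levels over the 30 libraries ran from 2.62 normalised counts for Hist1h4m to 25687 for Hist1h2be, an H2B gene of the Hist1 cluster. Mean levels of at least 1000 were found for 45 members and under 100 for 8. Per kilobase of the longest transcript model, the 3 highest were the linker histone gene Hist1h1a at 21827 and the core histone genes Hist2h2aa2 at 20591 and Hist2h2bb at 20432. Hist1h1t, Hist1h2aa and Hist1h2ba, genes known for their expression in testis, were low, with means of 132, 50.0 and 21.9 normalised counts. Levels ranged less across libraries than those of other genes: after adding 4 to each value, the highest library was a median of 2.24 times the lowest over the 61 members tested, against 4.51 times over 15712 genes. The ratio was under 2 for 23 of the 61 members (37.7%) and for 16.7% of all genes tested. The median of the mean levels over the 62 rows was 2205 normalised counts, and no comparison was made with genes of like level. Whether the smaller range goes beyond that level was therefore not tested. Many members are near-identical copies, and the authors' counting could split reads between them. Hist1h2bq and Hist1h2br carried identical values in every library. The model of Hist1h2be (chromosome 13, 23583670 to 23621124, minus strand) overlaps that of Hist1h1e (23620629 to 23622558, minus strand), so reads from the shared stretch cannot be told apart.

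At day 8, in the mean over lines, histone RNA was higher than in stem cells for most H2A, H2B and H3 genes. The same held for 2 of 6 H1 genes. On the log2(value + 4) scale, averaged over the 5 lines, 46 of 61 tested members changed between day 0 and day 8 by limma's test at an adjusted p of 0.05, 38 higher and 8 lower, where 61.0% of all genes tested were called. Of all genes tested 32.5% were called higher and 28.5% lower, whereas 62.3% of the histone members were called higher and 13.1% lower. The median change of the members was 0.29 on the log2 scale, against 0.05 over all genes. Of the 61 tested members, 32 were higher in every line and 5 lower in every line, where 24.0% and 21.2% of all genes tested were higher or lower in every line. In 3 members, Hist3h2ba, Hist3h2a and Hist1h2ba, the 10 day 8 libraries did not overlap the 10 day 0 libraries, where 12.1% of all genes did not overlap. Without the 2 double knockout libraries in doubt, 37 members were called.

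**Figure D1:**
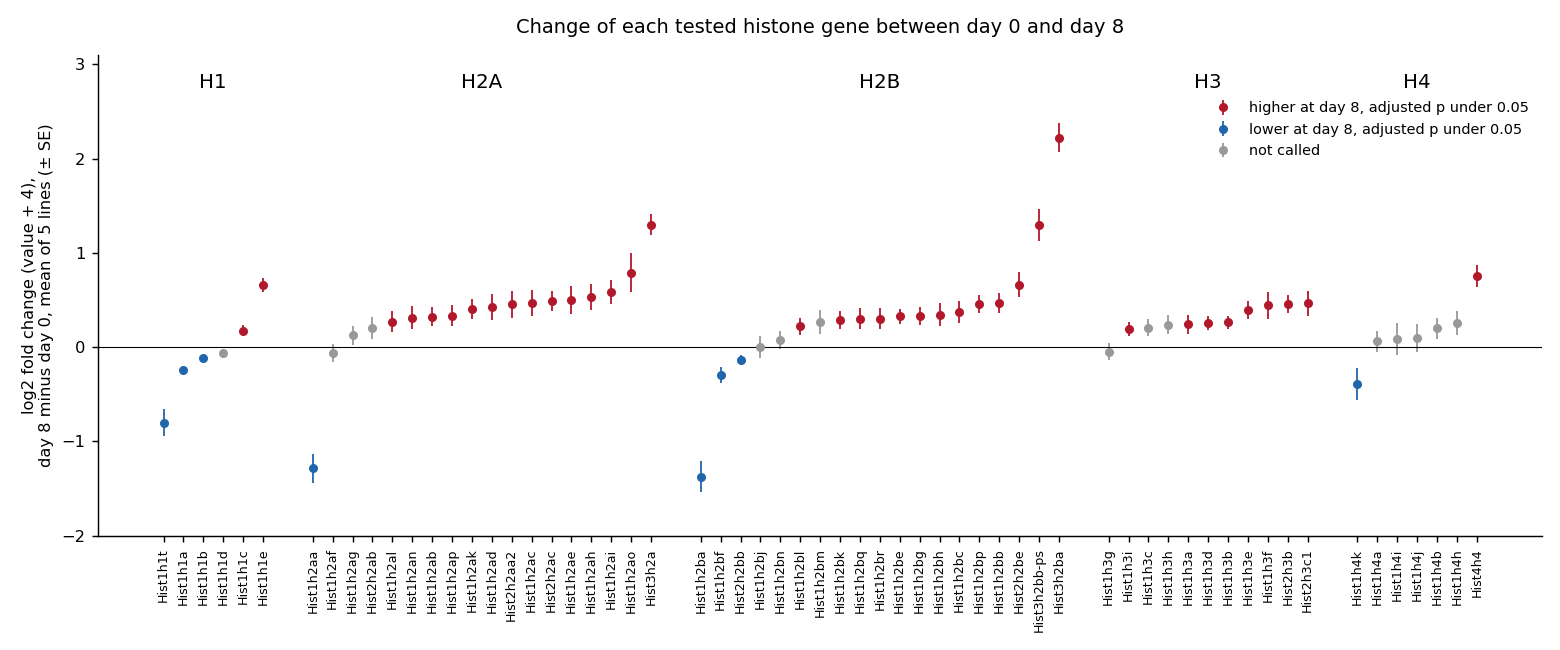
Change of the 61 tested histone genes between day 0 and day 8, averaged over the 5 lines, as log2 fold change of value + 4 (vertical axis, error bars ± SE from limma), grouped by histone class and ordered by size. The 38 genes called higher are red, the 8 called lower are blue and the rest grey; Hist3h2ba stands highest at 2.22 and Hist1h2ba lowest at −1.37.

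Over all genes tested, 32.5% were called higher at day 8 and 28.5% lower, with a median change of 0.05. By class, 14 of 18 H2A genes were higher at day 8 and 1 was lower, with a median change of 0.42. Of 19 H2B genes, 13 were higher and 3 lower, with a median of 0.30. The higher rows include the pseudogenes Hist1h2al (H2A) and Hist3h2bb-ps (H2B). Of 11 H3 genes, 8 were higher and 0 lower, with a median of 0.26. Of the 7 H4 genes tested, 1 was higher and 1 lower, with a median of 0.10. The lower H4 row was Hist1h4k, which lay between only 1.04 and 14.5 normalised counts over the 30 libraries. Of 6 H1 genes 2 were higher, a share near that over all genes, and 3 lower, with a median of −0.09. Summed over its genes, H2A RNA was 28594 ± 5133 normalised counts at day 0 and 39665 ± 7640 at day 8 (SD, n = 10 libraries of 5 lines each). The H3 sum was 46155 ± 7743 at day 0 and 57672 ± 7815 at day 8. The H1 sum was 60380 ± 4976 at day 0 and 61421 ± 4916 at day 8, a difference smaller than the spread between libraries. The ratio of the sums, averaged over lines on the log2 scale, was 0.47 ± 0.30 for H2A, 0.27 ± 0.18 for H2B, 0.33 ± 0.22 for H3, 0.25 ± 0.26 for H4 and 0.02 ± 0.14 for H1 (SD over 5 lines). No test was made of the sums.

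**Figure D2:**
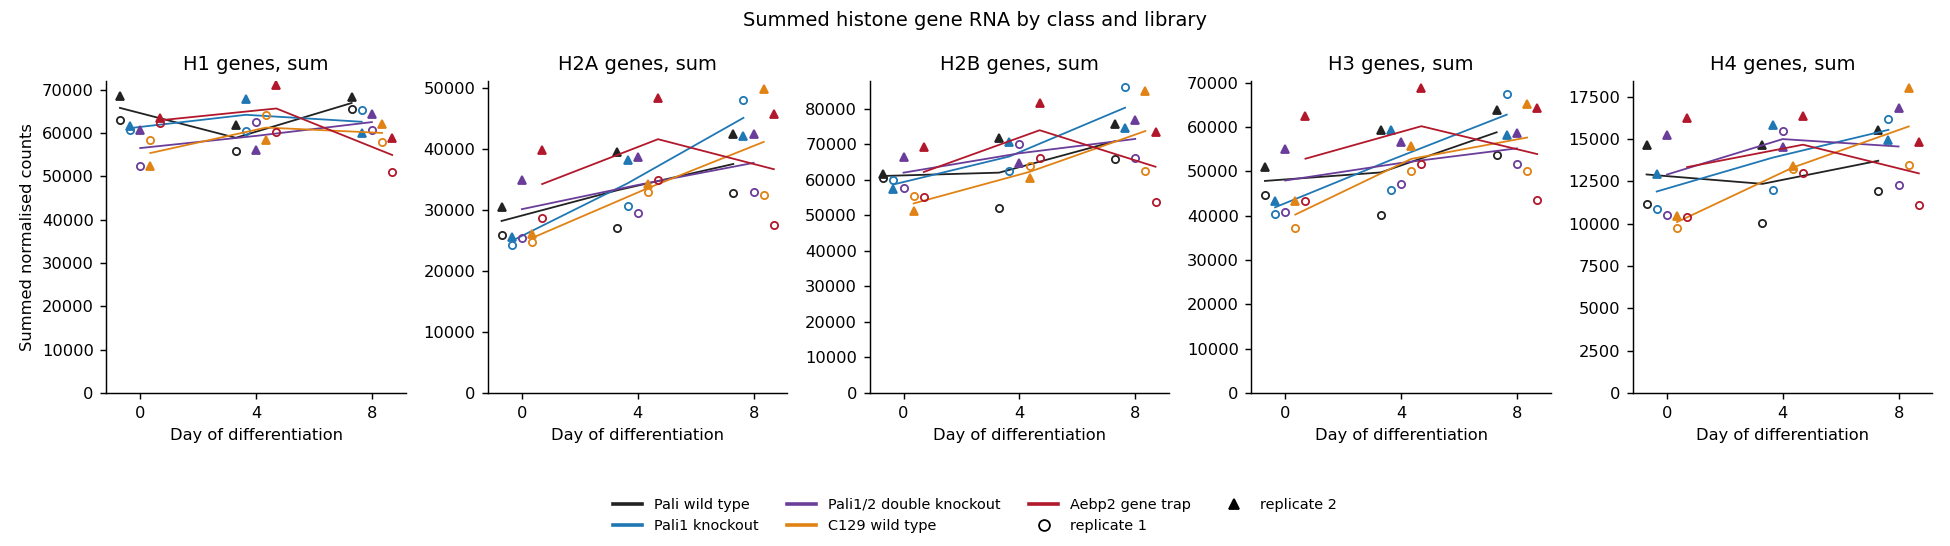
Summed normalised counts of the H1, H2A, H2B, H3 and H4 genes (vertical axes from 0) in each of the 30 libraries by day of differentiation, with lines through the means of duplicates. H1 sums stay between 50950 and 71024, while the H2A medians go from 25999 at day 0 to 42279 at day 8 with wide spread between duplicates.

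The largest increases were in the 3 Hist3 rows, Hist3h2ba, Hist3h2a and the pseudogene Hist3h2bb-ps. Hist3h2ba (chromosome 11, 58948920 to 58949533, plus strand) encodes an H2B and lay between 64.5 and 238 normalised counts at day 0, with a median of 93.2. At day 8 it lay between 283 and 655, with a median of 498. All 10 day 8 libraries were above all 10 day 0 libraries, and the change was 2.22 ± 0.15 (log2 fold change ± SE, limma, adjusted p = 7.8e-10), higher in 5 of 5 lines. Hist3h2a (58954685 to 58956830, plus strand), which encodes an H2A, lay between 766 and 1485 at day 0 (median 914) and between 1778 and 3256 at day 8 (median 2413). Again the days did not overlap, and the change was 1.30 ± 0.11 (limma, adjusted p = 1.0e-08). The 2 genes did not change by the same factor: the ratio of Hist3h2ba to Hist3h2a had a median of 0.0938 at day 0 (0.0776 to 0.161) and 0.211 at day 8 (0.159 to 0.264). Both were already near their day 8 level at day 4, with medians of 506 for Hist3h2ba and 2298 for Hist3h2a. Between day 0 and day 4, Hist3h2ba changed by 2.12 ± 0.15 and Hist3h2a by 1.25 ± 0.11 (limma, adjusted p = 2.0e-09 and 2.3e-08).

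Hist1h1e, a linker histone gene, lay between 5387 and 8133 normalised counts at day 0 (median 6541), between 8734 and 12909 at day 4 (median 11054) and between 6536 and 13702 at day 8 (median 10820). The day 4 libraries were all above the day 0 libraries, while at day 8 the lower Aebp2gt/gt library at 6536 fell within the day 0 range. The change at day 8 was 0.66 ± 0.07 (limma, adjusted p = 3.4e-07). Hist1h1a, also an H1 gene, went the other way, with medians of 17876 at day 0 and 14621 at day 8 and ranges of 15193 to 19644 and 13214 to 16846 that overlapped. It fell by 0.25 on the log2 scale (SE 0.05, limma, adjusted p = 0.00029). The ratio of Hist1h1e to Hist1h1a had a median of 0.375 at day 0 (0.301 to 0.499) and 0.720 at day 8 (0.491 to 0.986), with the lowest day 8 library just below the highest day 0 library. Hist1h1b fell by 0.12 (SE 0.04, adjusted p = 0.017) and Hist1h1d, at −0.06, did not pass the test. The steady H1 sum was thus made of members that moved in opposite directions.

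Hist4h4, the H4 gene outside the clusters (chromosome 6, 136801553 to 136804415, minus strand), lay between 1126 and 1942 normalised counts at day 0 (median 1327) and between 1379 and 4107 at day 8 (median 2417). The ranges overlapped, and the change was 0.75 ± 0.12 (limma, adjusted p = 2.3e-05). It was the 1 H4 gene called higher. The most abundant H4 genes, Hist1h4h and Hist1h4a, had changes of 0.26 and 0.06 that did not pass the test. Hist1h4h passed without replicate 1 of C129 wild type at day 8 (adjusted p = 0.050), without replicate 2 of the double knockout at day 0 (adjusted p = 0.046) and without replicate 2 of Aebp2gt/gt at day 0 (adjusted p = 0.033). Among abundant core histone genes, Hist1h2be, an H2B gene, went from a median of 23262 to 28359, a change of 0.33 ± 0.08 (limma, adjusted p = 0.0011). Hist1h3f, an H3 gene, went from 13005 to 19638, a change of 0.44 ± 0.14 (adjusted p = 0.013), and Hist2h2aa2, an H2A gene, from 8324 to 13537, a change of 0.45 ± 0.14 (adjusted p = 0.0094). For each of these genes the ranges at day 0 and day 8 overlapped.

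**Figure D3:**
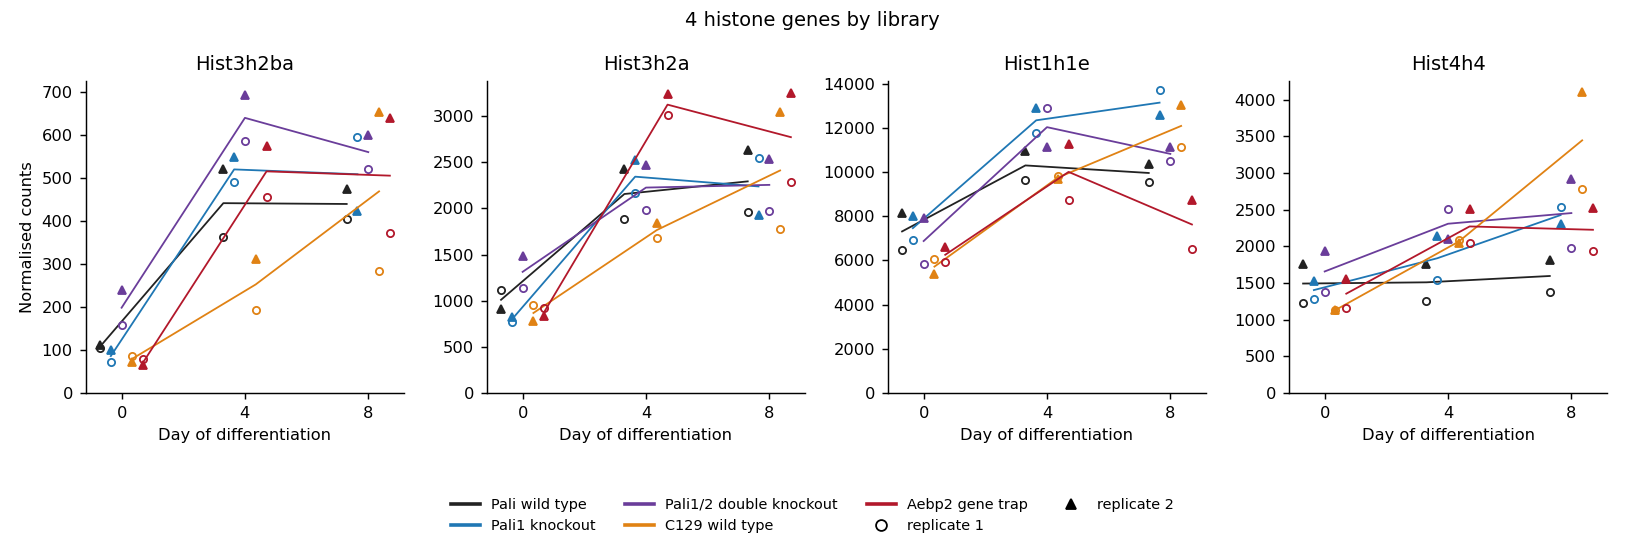
Normalised counts (vertical axes from 0) of Hist3h2ba, Hist3h2a, Hist1h1e and Hist4h4 in each library by day, with lines through the means of duplicates. For Hist3h2ba and Hist3h2a every day 4 and day 8 library except the lowest day 4 value of Hist3h2ba (193, C129 wild type) lies above all day 0 libraries.

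Between day 0 and day 4, averaged over lines, 21 of 61 members were called, 17 higher and 4 lower, where 54.4% of all genes were called. The median change was 0.20, against 0.01 over all genes. Between day 4 and day 8, 4 members were called, 2 higher and 2 lower, where 33.8% of all genes were called, and the median change was 0.10. The count of 21 was 32 without replicate 1 of Pali_WT at day 4. The count of 4 was 2 without replicate 1 of Pali_WT at day 4, replicate 1 of Pali1-/- at day 8 or replicate 2 of C129 wild type at day 8, and 1 without replicate 1 of Pali1-/- at day 4. It was 7 without replicate 1 of C129 wild type or of Aebp2gt/gt at day 8.

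Of the 8 members with long models past the stem-loop, 7 were higher at day 8 and 0 lower, with a median change of 0.47, where 32.5% of all genes were called higher and 28.5% lower. Of the 30 tested members with a shorter model after the stem-loop, 18 were higher and 2 lower (median 0.27), and of the 23 without the pattern 13 were higher and 6 lower (median 0.24). Among other genes, the median change at day 8 was −0.24 for 110 genes under 600 bases, −0.16 for 598 genes of 600 to 1000 bases and 0.06 for 14664 longer genes.

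The lines differed in how many members passed the test between day 0 and day 8, which is not itself a test between lines. Tests of the difference in course are given further below. The median member changed by 0.27 in Pali_WT, 0.56 in Pali1-/- and 0.20 in the double knockout. It changed by 0.45 in C129 wild type and by 0.02 in Aebp2gt/gt. In Pali_WT 5 members were called (4 higher, 1 lower; 25.8% of all genes were called), in Pali1-/- 28 (24 higher, 4 lower; 42.1%) and in the double knockout 6 (5 higher, 1 lower; 30.9%). In C129 wild type 20 were called (16 higher, 4 lower; 45.8%) and in Aebp2gt/gt 7 (3 higher, 4 lower; 31.3%). Hist3h2a and Hist3h2ba rose in each of the 5 lines, with changes of 0.78 to 1.64 for Hist3h2a and 1.51 to 2.71 for Hist3h2ba, the smallest in the double knockout for both. The count in Pali_WT was 3 without replicate 1 at day 0 or either replicate at day 8, and that in Aebp2gt/gt was 4 without replicate 1 at day 8. The count in Pali1-/- was 10 to 16 without any 1 of its 4 libraries at these days. The count in C129 wild type was 9 and 12 without replicate 1 and replicate 2 at day 0, and 27 and 8 without replicate 1 and replicate 2 at day 8. The double knockout count was 1 without replicate 1 at day 0, and it was 0 when that library and replicate 1 at day 4, the 2 in doubt, were both left out.

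The duplicates were not alike in histone RNA. The fit behind the counts of members called did not include the replicate number. With it several of these counts were higher, as given in the last section. In 13 of 15 groups the median member was higher in replicate 2 than in replicate 1, with medians from −0.17 to 0.49 on the log2 scale over the 15 groups. Other genes under 600 bases were higher in replicate 2 in 4 of 15 groups, with medians from −0.17 to 0.10. The H2A sum in Aebp2gt/gt at day 8 was 27599 in replicate 1 and 45809 in replicate 2, and in C129 wild type at day 8 it was 32476 and 49892. In Pali1-/- at day 8 replicate 1 was the higher, at 48106 against 42158. Within replicate 1 libraries alone the median member changed by 0.28 from day 0 to day 8, with 48 of 61 members higher. Within replicate 2 libraries alone it changed by 0.32, also with 48 of 61 higher. Over all genes the medians were 0.04 in replicate 1 and 0.07 in replicate 2, with 52.1% and 53.7% of genes higher. Every group held 1 library of each replicate number, so the change over both is made of these 2 and their agreement is not a separate test.

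In Pali1-/- against Pali_WT, 0 of 61 members were called at day 0 (4.79% of all genes were called) and 0 at day 4 (2.67%). At an unadjusted p under 0.05, limma gave 0 members at day 0 and 2 at day 4. At day 8, 2 were called (13.6% of all genes), both lower: Hist1h1t and Hist1h1b. In the double knockout against Pali_WT, 0 were called at day 0 and 0 at day 4, with 3 and 2 members at an unadjusted p under 0.05, and 1 at day 8, Hist1h1t. Over all genes limma called 3.67% at day 0, 2.07% at day 4 and 7.21% at day 8 in the double knockout. The median member differed from Pali_WT at day 8 by 0.16 in Pali1-/- and by −0.02 in the double knockout.

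Hist1h1t, the testis-type H1 gene, was lower in both Pali mutants at day 8. In Pali_WT its duplicates were 134 and 224 normalised counts at day 8, in Pali1-/- 69.6 and 57.9, and in the double knockout 66.8 and 84.8. All 4 mutant libraries were below both wild type libraries. The difference was −1.40 ± 0.31 for Pali1-/- (log2 fold change ± SE, limma, adjusted p = 0.0059) and −1.16 ± 0.31 for the double knockout (adjusted p = 0.032), and both comparisons share the wild type libraries. At day 0 the values were 157 and 130 in Pali_WT, 210 and 199 in Pali1-/- and 165 and 134 in the double knockout, with adjusted p-values of 0.47 and 1.0. The change of Hist1h1t from day 0 to day 8 differed between Pali1-/- and Pali_WT by −1.90 ± 0.44 (limma interaction, adjusted p = 0.019), and between the double knockout and Pali_WT by −1.22 ± 0.44 (adjusted p = 0.21). The interaction call for Pali1-/- was lost without replicate 2 of Pali_WT at day 0 and without some other single libraries. These calls rested on single libraries: without replicate 2 of Pali_WT at day 8 the adjusted p of Hist1h1t at day 8 was 0.10 for Pali1-/- and 0.29 for the double knockout. Without replicate 2 of Pali1-/- at day 8 the first was 0.068, and without replicate 1 or 2 of the double knockout the second was 0.21 or 0.079. Hist1h1b lay at 11084 and 10965 in Pali_WT and at 9172 and 8817 in Pali1-/- at day 8, a difference of −0.29 ± 0.09 (adjusted p = 0.037). Leaving out any of these 4 libraries took the adjusted p of Hist1h1b to between 0.088 and 0.20.

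At day 8, 3 of the 4 members that differed between Aebp2gt/gt and C129 wild type were testis-type genes, and all 3 were higher in the trap line. Hist1h2aa, an H2A gene (chromosome 13, 23934462 to 23934851, plus strand), was 170 and 141 normalised counts in C129 wild type at day 0, 86.2 and 46.5 at day 4 and 4.72 and 6.11 at day 8. In Aebp2gt/gt it was 70.1 and 82.2, then 68.5 and 116, then 43.9 and 48.3. The lines did not overlap at day 0 or day 8 and stood in opposite order at those days, though the day 0 difference of −0.99 did not pass (limma, adjusted p = 0.060). At day 8 the difference was 2.41 ± 0.33 (limma, adjusted p = 6.9e-05), and the change from day 0 to day 8 differed by 3.41 ± 0.47 (limma interaction, adjusted p = 0.00020). Hist1h2ba, its H2B neighbour (23933773 to 23934156, minus strand), measured 61.6 and 65.8 in C129 wild type stem cells, then 1.89 and 3.49 in day 8 bodies. In Aebp2gt/gt it measured 26.0 and 43.8, then 19.9 and 17.2. The day 0 difference of −0.84 did not pass (limma, adjusted p = 0.15). The day 8 difference was 1.76 ± 0.37 (adjusted p = 0.0021), and the changes differed by 2.60 ± 0.52 (adjusted p = 0.0027).

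Hist1h1t behaved likewise between these lines. It was 263 and 150 in C129 wild type at day 0 and 54.8 and 32.3 at day 8, against 87.1 and 71.5 at day 0 and 131 and 88.4 at day 8 in Aebp2gt/gt. The trap line was thus lower at day 0 and higher at day 8, with no overlap on either day. The differences were −1.29 ± 0.31 at day 0 and 1.27 ± 0.31 at day 8 (limma, adjusted p = 0.011 and 0.0071), and the changes differed by 2.56 ± 0.44 (limma interaction, adjusted p = 0.0010). Without replicate 1 of C129 wild type at day 0 the day 0 difference of Hist1h1t was −0.89 (adjusted p = 0.19), and without replicate 2 of Aebp2gt/gt it was −1.15 (adjusted p = 0.091). At day 8 the call of Hist1h1t was lost without replicate 2 of C129 wild type or replicate 1 of Aebp2gt/gt. The sum of 7 germ cell markers ranged from 532 to 1303 at day 0 and from 167 to 1279 at day 8 over all lines. The part of these markers in these results was not tested.

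**Figure D4:**
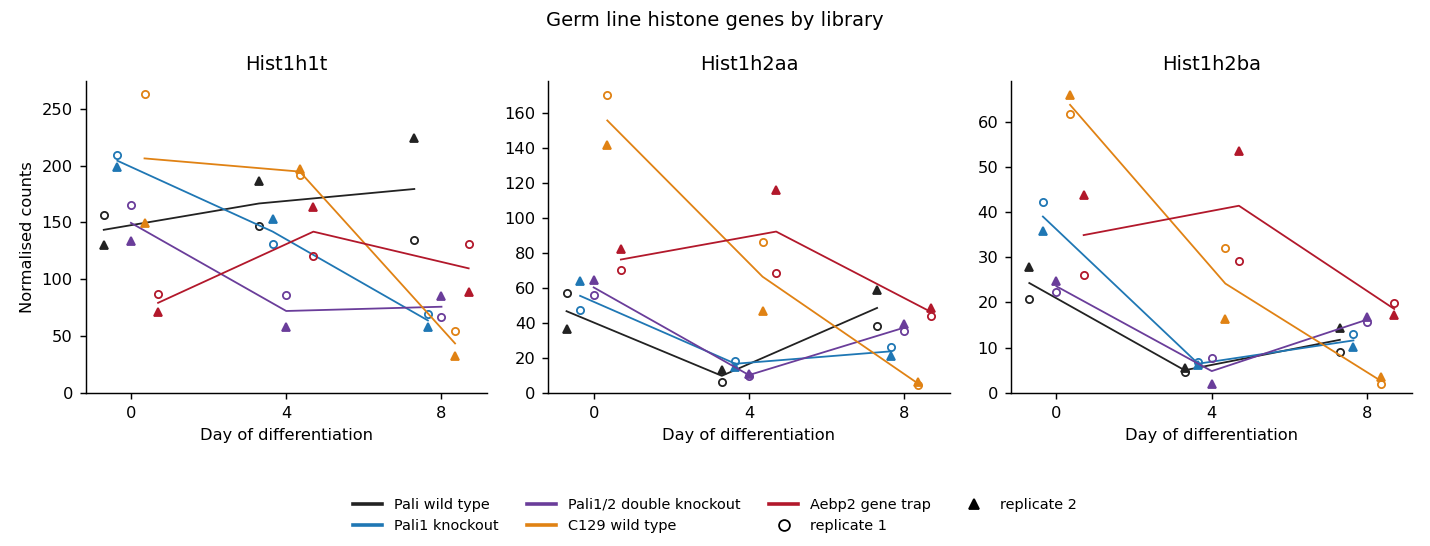
Normalised counts (vertical axes from 0) of the testis-type genes Hist1h1t, Hist1h2aa and Hist1h2ba in each library by day, with lines through the means of duplicates. C129 wild type starts highest and ends lowest for Hist1h2aa (170 and 141 to 4.72 and 6.11), while Hist1h2aa and Hist1h2ba in the 3 Pali lines are lowest at day 4.

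In the Pali lines Hist1h2aa and Hist1h2ba were lowest at day 4. Hist1h2aa in Pali_WT was 57.0 and 36.3 at day 0, 6.34 and 13.2 at day 4 and 38.1 and 58.9 at day 8. The duplicates at day 4 were below those of both other days, and the values at day 0 and day 8 overlapped. Hist1h2aa changed in Pali_WT by −1.90 ± 0.33 from day 0 to day 4 (limma, adjusted p = 0.00035) and by 1.95 ± 0.33 from day 4 to day 8 (adjusted p = 0.0046). In Pali_WT between day 4 and day 8 this was the 1 member called, where 2.81% of all genes were called. In the double knockout Hist1h2aa was 55.8 and 64.7, then 9.61 and 10.7, then 35.5 and 39.1, and in Pali1-/- 47.1 and 63.7, then 18.4 and 14.9, then 26.1 and 21.3. Hist1h2ba changed from day 0 to day 4 by −1.64 ± 0.37 in Pali_WT, −2.04 ± 0.37 in Pali1-/- and −1.72 ± 0.37 in the double knockout (adjusted p = 0.0025, 0.00034 and 0.0018). Averaged over the 5 lines both genes were lower at day 8. Hist1h2aa changed by −1.29 ± 0.15 and Hist1h2ba by −1.37 ± 0.16 (limma, adjusted p = 6.0e-07 and 8.2e-07). By line Hist1h2aa changed by −4.08 in C129 wild type, −1.09 in Pali1-/- and −0.68 in Aebp2gt/gt. It changed by −0.64 in the double knockout and by 0.05 in Pali_WT. Hist1h2ba changed by −3.35 in C129 wild type and by −1.46 to −0.45 in the other lines.

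Between Aebp2gt/gt and C129 wild type, 1 member was called at day 0 (13.0% of all genes), 1 at day 4 (9.01%) and 4 at day 8 (20.1%). The count at day 0 was 0 without replicate 1 of C129 wild type, the count at day 4 was 0 without any 1 of its 4 libraries, and the count at day 8 was 2 without replicate 2 of C129 wild type or replicate 1 of Aebp2gt/gt. With the replicate number added to the fit, the counts at day 0 and day 4 were higher, as given in the last section. At day 4 the call without it was Hist3h2a, at 3007 and 3243 in Aebp2gt/gt against 1683 and 1846 in C129 wild type. The trap libraries were both higher, with a difference of 0.82 ± 0.24 (limma, adjusted p = 0.043). Without any 1 of these 4 libraries the adjusted p of Hist3h2a lay between 0.094 and 0.22, and with upper-quartile scaling it was 0.064. At day 8 Hist1h1e was lower in Aebp2gt/gt, at 6536 and 8713 against 11143 and 13028, a difference of −0.67 ± 0.16 (adjusted p = 0.0063). Its change from day 0 differed by −0.80 ± 0.23 (limma interaction, adjusted p = 0.025). Without replicate 1 of Aebp2gt/gt at day 8 the day 8 difference of Hist1h1e was −0.47 (adjusted p = 0.13), and without replicate 2 of C129 wild type it was −0.56 (adjusted p = 0.079).

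In Aebp2gt/gt the day 8 to day 0 log2 ratio was 0.07 for H2A, 0.03 for H2B, 0.03 for H3, −0.02 for H4 and −0.20 for H1, whereas in C129 wild type the ratios were 0.66, 0.45, 0.51, 0.63 and 0.12. The spread between duplicates was of this size, as the H2A sums above show, and the difference of the sums was not tested. Gene by gene, the change from day 0 to day 8 differed between these lines for 5 of 61 members, with 4 higher and 1 lower in Aebp2gt/gt, where 15.3% of all genes were called. These 5 were Hist1h2aa, Hist1h1t, Hist1h2ba, Hist1h2bm and Hist1h1e, and the median difference over the 61 members was −0.45. Adding the replicate number to the fit gave a higher count, as given in the last section. The count of 5 was 3 without replicate 2 of C129 wild type at day 0 or replicate 1 of Aebp2gt/gt at day 8, and 9 without replicate 2 of Aebp2gt/gt at day 8. The same comparison gave 1 member for Pali1-/- against Pali_WT (5.73% of all genes), and 0 for the double knockout against Pali_WT (1.12%), where 2 members had an unadjusted limma p under 0.05.

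The wild type lines differed from each other more than any mutant differed from its wild type in the size of a single change. Hist1h2bm, an H2B gene of the Hist1 cluster (chromosome 13, 21722044 to 21722567, plus strand), lay between 1276 and 2210 normalised counts in all 18 libraries of the 3 Pali lines. In the 12 libraries of C129 wild type and Aebp2gt/gt it lay between 4.52 and 20.1. The difference between C129 wild type and Pali_WT was −6.09 ± 0.28 at day 0, −6.22 ± 0.28 at day 4 and −6.98 ± 0.28 at day 8 (limma, adjusted p = 3.9e-10, 1.8e-10 and 4.0e-11). The change of Hist1h2bm from day 0 to day 8 within these low values differed between Aebp2gt/gt and C129 wild type by 1.26 ± 0.40 (limma interaction, adjusted p = 0.040), at 4.52 and 13.1 then 17.5 and 13.9 against 15.1 and 19.5 then 7.56 and 14.0. Hist3h2bb-ps, annotated as an H2B pseudogene (chromosome 11, 58954048 to 58954512, minus strand), lay between 6.41 and 71.3 in the Pali lines and between 0 and 3.49 in the other 2 lines, where 6 of 12 libraries were listed at 0. In Pali_WT it was 6.58 and 6.41 at day 0, 39.0 and 47.2 at day 4 and 42.1 and 57.8 at day 8, beside its neighbours Hist3h2a and Hist3h2ba that also rose.

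**Figure D5:**
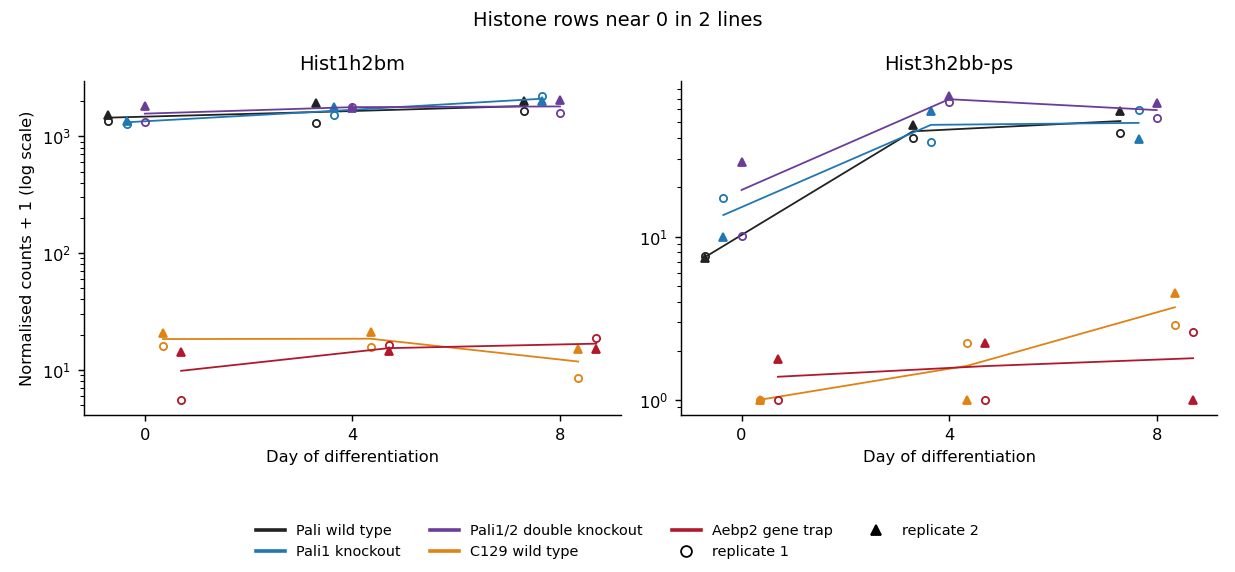
Normalised counts plus 1 (log scale) of Hist1h2bm and Hist3h2bb-ps in each library by day, with lines through the means of duplicates. The 18 libraries of the 3 Pali lines lie above the 12 libraries of C129 wild type and Aebp2gt/gt for both rows on every day.

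Between C129 wild type and Pali_WT, 9 of 61 members were called at day 0, with 2 higher and 7 lower in C129, where 21.1% of all genes were called. At day 4 limma called 8 members, 6 of them higher in C129 (15.9% of all genes), and at day 8 it called 9, with 3 higher (17.3% of all genes). The day 0 count was 4 without replicate 1 of Pali_WT or replicate 2 of C129 wild type, and 5 without either of the other libraries. The day 4 count was 5 without replicate 1 of Pali_WT and 3 without replicate 1 of C129 wild type, and the day 8 count was 5 without replicate 2 of C129 wild type. Hist1h2aa was 1.68 ± 0.33 higher in C129 wild type at day 0, 2.34 ± 0.33 higher at day 4 and lower at day 8, with a difference of −2.45 ± 0.33 (limma, adjusted p = 0.0015, 0.00015 and 6.8e-05). Its change from day 0 to day 8 differed by −4.14 ± 0.47 (limma interaction, adjusted p = 2.6e-05), and 4 of 61 members differed in this way, 1 higher and 3 lower, where 14.2% of all genes did. In Pali_WT, Hist4h4 was 1225 and 1760 in the stem cells and 1379 and 1812 in day 8 bodies. In C129 wild type it was 1136 and 1126, then 2786 and 4107. The day 8 libraries of C129 were both higher, and the changes of Hist4h4 differed by 1.47 ± 0.37 (limma interaction, adjusted p = 0.013). The day 8 difference of Hist4h4 was 1.10 ± 0.26 (adjusted p = 0.0075), with adjusted p-values of 0.087 without replicate 1 of Pali_WT and 0.12 without replicate 2 of C129 wild type at day 8. No other label separates these lines, so genetic background, culture history and any batch of the lines cannot be told apart.

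Genes that make, process or accompany histone RNA were counted from lists of their own, where 32.5% of all genes tested were called higher at day 8 and 28.5% lower. Of 36 DNA replication genes, 3 were higher and 29 lower at day 8 over the 5 lines, with a median of −0.32, where the histone median was 0.29. Pcna, the replication clamp, fell by 0.37 (SE 0.05), Mcm2, a subunit of the replicative helicase, by 0.47 (SE 0.03) and Rrm2, a ribonucleotide reductase subunit, by 0.35 (SE 0.05). Of 21 mitosis genes, 2 were higher and 14 lower, with a median of −0.24. Of 7 CDK inhibitor genes 3 were higher and 0 lower, and Cdkn1a, which makes p21, changed by 2.01 ± 0.10 (limma, adjusted p = 1.3e-11), from a median of 220 to 905 normalised counts. The difference between these lists and the histone genes was not tested.

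Of 10 tested genes of histone RNA 3′ end processing, 1 was higher at day 8 and 4 lower, against 61.0% of all genes called in either direction. Slbp, which makes the stem-loop binding protein, went from a median of 3882 to 3156 and fell by 0.29 (SE 0.05, limma, adjusted p = 7.0e-05). Lsm11, a subunit of the U7 particle that directs cleavage, changed by 0.36 ± 0.07 (adjusted p = 0.00029), and Lsm10, its partner, by −0.26, which did not pass (adjusted p = 0.15). Without replicate 2 of the double knockout at day 8, Lsm10 passed at −0.35 (adjusted p = 0.045). Of 8 genes of histone transcription, 1 was higher and 3 lower. Npat, the coactivator of histone genes, went from a median of 548 to 759, a change of 0.41 ± 0.08 (adjusted p = 0.00021), and Casp8ap2 (FLASH), at −0.15, did not pass (adjusted p = 0.14). Without replicate 1 of C129 wild type at day 0, Casp8ap2 passed at −0.21 (adjusted p = 0.023). Of 4 decay genes 0 were higher and 2 lower, with Eri1, an exonuclease that acts at the stem-loop, changing by −0.40 ± 0.04 (adjusted p = 2.3e-07). Of 22 histone chaperone genes, 5 were higher and 9 lower, a share called near that over all genes.

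Replacement histones are made independently of DNA replication, from genes outside the histone clusters whose mRNAs carry poly(A) tails. Of 11 tested, 6 were higher at day 8 and 3 lower, with a median of 0.37. Over all genes tested 32.5% were called higher and 28.5% lower, with a median of 0.05. H1f0, a linker histone gene linked to differentiated cells, went from a median of 1149 to 1717 normalised counts, a change of 0.80 ± 0.08 (limma, adjusted p = 1.6e-07). Of the H3.3 genes, H3f3b changed by 0.72 ± 0.13 (adjusted p = 0.00012), whereas H3f3a, at −0.06, did not pass. H2afz, which makes the H2A.Z variant, went from a median of 20021 to 13131 and fell by 0.63 (SE 0.06, adjusted p = 2.3e-08). Cenpa, the centromeric H3, was at −0.09 and did not pass.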

How the data were processed

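RNA sequencing libraries were made with a stranded total RNA kit after removal of ribosomal RNA, per the labels' protocols. For the strand used in counting, the annotation, and how transcripts were joined into genes, the sources used here give nothing. Tools listed in the submitters' processing notes, with no role stated, are HISAT2 2.0.5, kallisto 0.43.1 and DESeq2, and the build listed is mm10. The deposited table holds a signal per gene: counts divided by a factor per library, as the authors normalised them, not whole reads. Values under 8 estimated reads were whole in 81.9 to 86.9% of cases per library (tolerance 0.001 read), so no count test was run.

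A gene was kept if 2 or more libraries reached a value of 10, which left 15712 genes, among them 61 of the 62 histone rows (Hist1h4m, at 0 to 7.54, was not tested). limma 3.58.1 in R 4.3.3, with trend and robust settings, was fitted to log2(value + 4) over 15 groups of 2 libraries, leaving 15 residual degrees of freedom. P-values were adjusted by Benjamini and Hochberg over all genes within a comparison, with a threshold of 0.05. Fold changes on this scale understate changes of low genes. The code was tested on simulated data. Depth limits precision most for rows under 100 normalised counts.

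Columns headed WT were given to Pali_WT because the other wild type columns name C129. Named members were the 2 most abundant per class, up to 4 per direction with the lowest adjusted p in the means over lines, up to 2 per direction in each comparison of lines, and 3 testis-type genes. Members and lists were chosen with earlier results of these data known. Alternatives were other pseudocounts (1 and 16), no filter or a mean of at least 50, TMM and upper-quartile rescaling, a replicate block, and leaving out each library. Leaving out both double knockout libraries in doubt was chosen after seeing the data.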

Additional observations from a re-analysis of the deposited data

Results flagged for a closer look

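For the genes given here the change from day 0 to day 8 differed between 2 lines by limma's interaction term, at an adjusted p under the threshold of 0.05. Values are differences of log2 changes. Between Pali1-/- and Pali_WT the change of Hist1h1t differed by −1.90 and that of Cdkn1a by 1.17. The Hist1h1t call was lost without some single libraries.

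Between Aebp2gt/gt and C129 wild type the testis-type genes Hist1h1t, Hist1h2aa and Hist1h2ba differed by 2.56, 3.41 and 2.60. Hist1h2bm, low in both lines, differed by 1.26 and the linker histone gene Hist1h1e by −0.80. The replacement linker histone gene H1f0 differed by −1.27 and the replication gene Pcna by −0.50.

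Between C129 wild type and Pali_WT, Hist1h1t, Hist1h2aa and Hist1h2ba differed by −2.41, −4.14 and −2.49, and Hist4h4 by 1.47. Of the other genes, Lsm11 differed by 1.04, H1f0 by 0.86, Mcm2 by −0.44 and Cdkn1a by 1.03. The comparisons of C129 wild type with Aebp2gt/gt and with Pali_WT share the C129 libraries, and those of Pali1-/- and C129 wild type share the Pali_WT libraries.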

How the results depend on the processing

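Of 1500 values of single genes over the alternatives, 1418 kept their side of the threshold, 70 lost the call and 12 gained it. A change of sign was counted only where the gene was called in either fit, and 0 such reversals were found. Genes not called could change sign, as Hist1h4a did at −0.005 without replicate 1 of Aebp2gt/gt at day 0. The cause of the changes below was not tested, apart from fewer libraries where some were left out. With upper-quartile scaling the count of members called was 13 for C129 wild type at day 8 against day 0, 1 for Pali1-/- against Pali_WT at day 8, 2 for Aebp2gt/gt against C129 wild type at day 0 and 0 at day 4. That last count was also 0 with no filter, and the day 0 count 2 with a pseudocount of 16. Without both double knockout libraries in doubt, 0 members were called between day 0 and day 8 in the double knockout.

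With single libraries left out, members called over the mean of lines numbered 17 to 32 at day 4, 36 to 49 at day 8 and 1 to 7 between day 4 and day 8. By line at day 8 they numbered 3 to 4 in Pali_WT, 10 to 16 in Pali1-/-, 1 to 5 in the double knockout, 8 to 27 in C129 wild type and 4 to 7 in Aebp2gt/gt. At days 0, 4 and 8 they numbered 0 to 0, 0 to 0 and 0 to 1 for Pali1-/- and likewise 0 to 0, 0 to 0 and 0 to 1 for the double knockout against Pali_WT. They numbered 0 to 1, 0 to 0 and 2 to 5 for Aebp2gt/gt against C129 wild type, and 4 to 5, 3 to 7 and 5 to 8 for C129 wild type against Pali_WT. Differences of the course gave 0 to 1 for Pali1-/-, 0 to 0 for the double knockout, 3 to 9 for Aebp2gt/gt and 3 to 5 for C129 wild type. Log2 ratios of the sums lay between 0.003 and 0.046 for H1, 0.39 and 0.54 for H2A, 0.22 and 0.31 for H2B, 0.27 and 0.38 for H3, and 0.19 and 0.32 for H4.

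Over all genes the replicate numbers did not establish a pairing, while among the histone members same-numbered libraries tended to deviate together. Deviations of same-numbered libraries had a median r of 0.02 over all genes and 0.23 over the histone members, with 78 of 105 pairs of groups over 0.1 among the members and 1 of 105 over all genes. With the block Hist1h4h, day 8 against day 0 over the mean of lines, passed at 0.26 (adjusted p = 0.014) and Hist1h2bm at 0.27 (adjusted p = 0.033). With the replicate block, members called numbered 37 at day 4 and 10 between day 4 and day 8 over the mean of lines, 9 in Pali_WT and 39 in C129 wild type at day 8. The block gave 2 for the double knockout against Pali_WT at day 8, 8 and 2 for Aebp2gt/gt against C129 wild type at day 0 and day 4, 14 for C129 wild type against Pali_WT at day 0, and 12 for the difference of the course between Aebp2gt/gt and C129 wild type. The share of all genes called was not taken for the block or the other alternatives. Counts of members under these settings therefore cannot be set against such a share.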
